A study of Homo sapiens with 4 samples.

Results

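Pairs of DNA segments on different chromosomes that were joined by 2 or more paired-end tags (PETs) were examined in 4 colorectal cancer cell lines. A PET is a sequenced ligation product whose ends fall in separate segments, here called anchors. A pair was kept where its deposited count within a line was 2 or more, and the kept pairs were merged into a single list wherever both anchors overlapped between lines. The merged list held 961 pairs. It came from 1007 entries, among 155680 interchromosomal pairs summed over the lines. These pairs are called multi-PET pairs below. Their PET counts chose them, so those counts are given as a description with no test.

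The lines were HCT116 (colorectal carcinoma), LS513 (colorectal carcinoma of Dukes' type C), SW480 (colorectal adenocarcinoma of Dukes' type B) and SW620 (colorectal adenocarcinoma of Dukes' type C). All 4 were established lines from ATCC, grown untreated, and all were fixed with 1% formaldehyde for 10 minutes. SW480 and SW620 are known to come from the same patient. Each line had 1 library, so no difference between lines has a replicate check, and every interval below covers counting error only.

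In HiChIP, chromatin is cut and ligated inside fixed nuclei and then enriched with an antibody, here against H3K27ac, the acetylated lysine of histone H3 that marks active promoters and enhancers. Chromosomes occupy separate territories in the nucleus, so most ligations join sites on the same chromosome, and those between chromosomes are spread thinly. In cancer cells, a translocation places segments of different chromosomes on a single DNA molecule. A map drawn on the reference genome then shows a patch of neighbouring interchromosomal contacts around the junction. Short and isolated pairs with many PETs are another shape that such a table can hold.

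HCT116 had 30062 interchromosomal pairs with 30620 PETs, LS513 65649 pairs with 66606 PETs, SW480 3961 pairs with 3988 PETs and SW620 56008 pairs with 56541 PETs. A single PET thus stood for 251 per 1000000 interchromosomal PETs in SW480, 32.7 in HCT116, 17.7 in SW620 and 15.01 in LS513. HCT116 and LS513 used almost the same anchors: of HCT116's single-PET pairs, 99.8% had both anchors in LS513. In SW620 this share was 69.9% and in SW480 16.1%. A pair could be counted in a line only where both of its anchors were listed there, which limited every comparison with SW480 and some with SW620.

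Multi-PET pairs were under 1% of all interchromosomal pairs in every line. HCT116 had 196 (0.652%; 95% Clopper-Pearson interval 0.564 to 0.750), LS513 421 (0.641%; 0.582 to 0.705), SW480 23 (0.581%; 0.368 to 0.870) and SW620 367 (0.655%; 0.590 to 0.726). The intervals of the 4 lines overlapped, but the libraries differed in depth. Brought to SW480's depth, 10.2 multi-PET pairs were expected in HCT116, 6.16 in LS513 and 4.69 in SW620, against its 23. That figure does not allow for anchors, of which SW480 listed 9350 and the other lines 21930 to 24555. Over the number expected from anchor totals, multi-PET pairs stood at 14.4 times in HCT116, 11.9 in SW480, 7.85 in SW620 and 6.62 in LS513. Just inside the threshold, 167, 389, 20 and 323 of these pairs had exactly 2 PETs. Just outside it, 29866, 65228, 3938 and 55641 pairs had a single PET. Pairs with 5 or more PETs numbered 13 for HCT116, 15 for LS513, 17 for SW620 and 0 for SW480.

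PETs were concentrated in a few pairs in HCT116 and LS513, and less so in SW620. The 4 largest pairs held 39.1% of all multi-PET PETs in HCT116 and 34.1% in LS513, but 8.22% in SW620. The largest pair had 206 PETs in LS513, 166 in HCT116, 26 in SW620 and 4 in SW480. The plot of PETs by rank shows a step after the fourth pair in HCT116 and LS513, from 32 to 13 PETs and from 64 to 12 PETs.

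**Figure D1:**
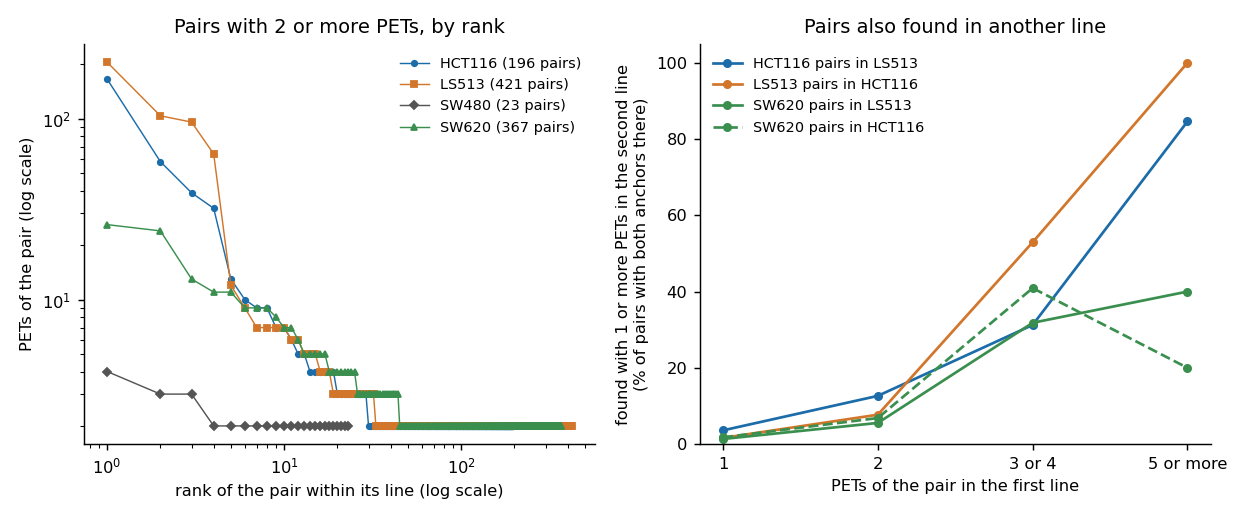
Left: PETs of each multi-PET pair (log scale) against its rank in its own line (log scale), 1 point per pair. Right: share of pairs with 1, 2, 3 or 4, and 5 or more PETs in a line that had at least 1 PET in another line, as a percentage of pairs with both anchors listed there; for LS513 pairs looked up in HCT116 it climbed from 1.63% to 100%.

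The same 4 pairs led both HCT116 and LS513. The largest joined chr1:16969123-16972781 to chr3:49726009-49728817 (hg19), with 166 PETs in HCT116 and 206 in LS513. The pair of chr2:203774622-203777734 and chr7:123171958-123174497 had 58 and 64 PETs. The pair of chr7:128169959-128173598 and chr17:60555134-60558381 had 39 and 96 PETs. The pair of chr1:145138501-145140920 and chr12:93769008-93775314 had 32 and 104 PETs. None was seen in SW480 or SW620. That absence cannot be compared, because SW620 listed an anchor at only 1 of the 2 sites of each pair, and SW480 at 1 site of the last pair and at none of the others.

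These 4 pairs were isolated spots. Their anchors were short, from 2.42 to 6.31 kb. In HCT116 no other interchromosomal pair lay within 1 Mb on both sides of any of them, and in LS513 only the largest had 1. Several of the anchors were almost empty apart from this single contact. The chromosome 1 anchor at 145138501 had 0 PETs with itself in either line and 0 other interchromosomal PETs. The anchor at chr2:203774622-203777734 had 1 PET with itself and 1 with the rest of its chromosome in each line. The chromosome 3 anchor at 49726009 gave 89.8% of its PETs to other chromosomes in HCT116 and 85.0% in LS513. Among anchors with at least 100 PETs the median share was 4% in HCT116 and 5.46% in LS513. In SW620 the chromosome 1 anchor of the largest pair was listed with 52 PETs with itself and 3 interchromosomal PETs, so the site was captured there. Whether the anchors of a pair resemble each other in sequence was not tested, since no hg19 sequence was used.

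Relative to depth, the first pair was 1.75 times higher in HCT116 than in LS513 (95% interval 1.42 to 2.16), and the chromosome 2 and 7 pair 1.97 times (1.36 to 2.86). The chromosome 7 and 17 pair had a ratio of 0.884 (0.593 to 1.29) and the chromosome 1 and 12 pair 0.669 (0.436 to 1.00), so neither was separated from equality. Of the 12 pairs with 10 or more PETs summed over these lines, 5 (41.7%) had an interval above 1 and 0 (0%) an interval under 1. The widest gap was at chr7:97556722-97558586 and chr8:12522115-12523982, with 9 PETs in HCT116 and 1 in LS513.

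**Figure D2:**
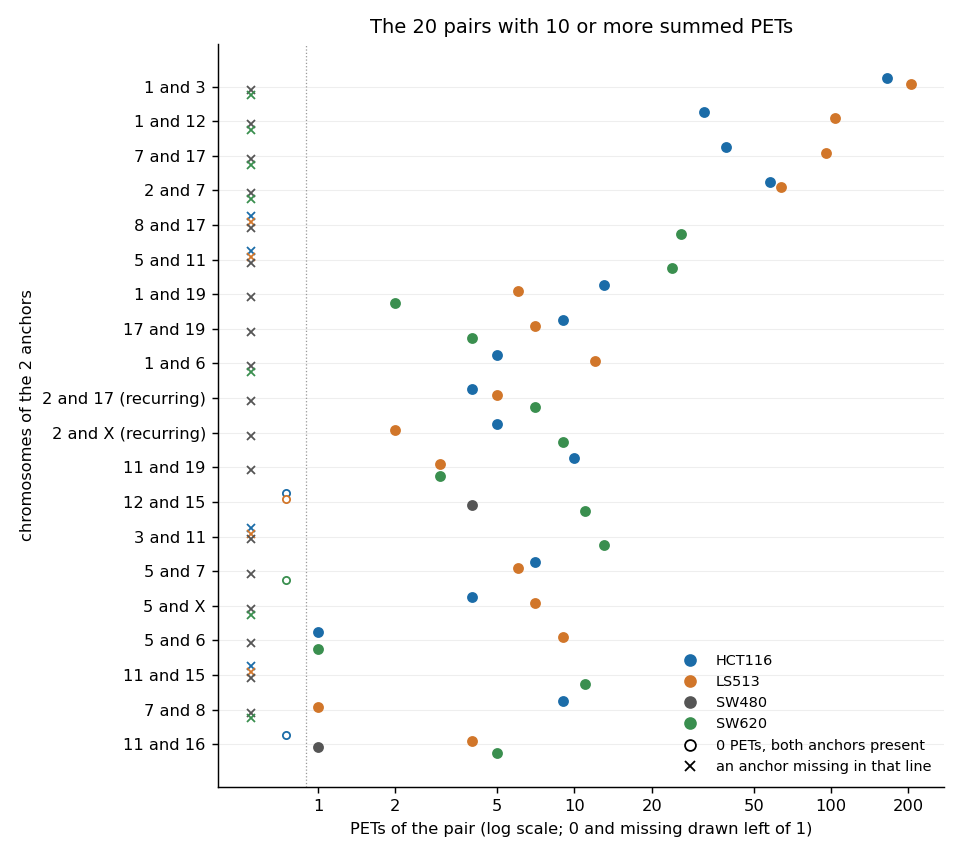
PETs (log scale) of the 20 multi-PET pairs with 10 or more PETs summed over the lines, labelled by the chromosomes of their anchors. Open circles mark 0 PETs where both anchors were listed, and crosses mark a line without both anchors; the upper 4 pairs have 32 to 206 PETs in HCT116 and LS513 and crosses in SW480 and SW620.

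SW620 had leading pairs of its own. The largest joined chr8:30144170-30146296 to chr17:7158637-7175190 with 26 PETs. The next joined chr5:32510658-32513131 to chr11:118776854-118805348 with 24 PETs. The pair of chr3:125634881-125636692 and chr11:71497651-71499814 had 13 PETs, and that of chr11:119611126-119620696 and chr15:44579133-44582161 had 11. None of these 4 had a PET in another line, and the other 3 lines each lacked at least 1 of the anchors.

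In the 2 largest SW620 pairs the anchors were unequal. The chromosome 8 anchor had 0 PETs with itself and 0 with the rest of its chromosome, while its partner on chromosome 17 had 175 and 117. The chromosome 5 anchor had 3 PETs with itself and 0 on its chromosome, while its chromosome 11 partner had 807 and 130. In both pairs a short anchor of 2.13 or 2.47 kb with almost no other contact met a long active one of 16.6 or 28.5 kb. Of the 28 interchromosomal PETs of the chromosome 8 anchor, 26 went to this partner. In the next 2 pairs both anchors had few contacts of their own. They had 0 to 4 PETs with themselves and 4 to 14 with the rest of their chromosome.

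A pair between chromosomes 12 and 15 was found in both SW480 and SW620 and in neither other line. It joined chr12:53293227-53325940 to chr15:71143885-71162892 (the merged extent of the anchors). It was the largest pair of SW480 with 4 PETs, and had 11 PETs in SW620. HCT116 and LS513 had anchors at both sites and 0 PETs. Per 1000000 interchromosomal PETs the pair stood at 1003 in SW480 and 195 in SW620, whereas a count of 0 allowed up to 97.98 in HCT116 and 45.04 in LS513. Set against that floor of 3 counts per library, SW620 stood 1.99 times above HCT116 and 4.32 times above LS513. With counting error on both sides, the lower 95% bounds of SW620 over HCT116 and over LS513 were 1.36 and 2.96. The anchors were active in the lines without the contact. At the chromosome 12 site HCT116 had 449 PETs with itself and LS513 844, and at the chromosome 15 site 107 and 36. SW620 had 647 and 107 at the same sites, the latter over 2 anchors, of which the one in contact had 98. Anchors at the chromosome 15 site differed in length. They were 5.43 kb in HCT116 and LS513, 11.1 kb in SW480 and 7.45 kb for the one in contact in SW620. The counts of 0 thus came from the shortest anchor. SW480 was 5.16 times higher than SW620 relative to depth (95% interval 1.20 to 17.4), from 4 PETs. Of the 961 pairs, this was the only one that was multi-PET in both SW480 and SW620.

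SW480's other leading pairs rested on 2 or 3 PETs. The pair of chr3:11681133-11686270 and chr17:63573781-63609729 had 3 PETs, with 1 PET in SW620 and 0 in HCT116 and LS513, where both anchors were listed. The pair of chr12:7050101-7058293 and chr14:71105473-71111779 had 3 PETs, with none elsewhere. The pairs of chromosomes 2 and 9 (chr2:192729283-192733362 and chr9:131899399-131907087) and 5 and 7 (chr5:59060378-59066733 and chr7:139958238-139962868) had 2 PETs each. The latter had 1 PET in HCT116. At SW480's depth a pair with 2 PETs stood at 502 per 1000000, above every pair of SW620, so ranks are not comparable between these lines.

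Most multi-PET pairs belonged to 1 line. Of the 961 pairs, 922 were multi-PET in 1 line, 32 in 2 lines, 7 in 3 lines and 0 in 4. With any PET counted, 847 were seen in 1 line only. Of each line's multi-PET pairs, 358 in LS513 (85.0%), 326 in SW620 (88.8%), 145 in HCT116 (74.0%) and 18 in SW480 (78.3%) had no PET elsewhere. Both anchors were listed in all other lines for only 56, 68, 11 and 11 of these. Single-PET pairs were found elsewhere less often still. Depending on the lines compared, 0.0429 to 3.60% of them had a PET in the other line, against 0.475 to 18.9% of multi-PET pairs. Of the 1007 entries, 85 (8.44%) were multi-PET in another line too. HCT116 and LS513 shared 24 pairs, which was 12.2% of HCT116's and 5.70% of LS513's. SW620 shared 13 pairs with HCT116 and 13 with LS513, or 3.54% of its own in each case.

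Recurrence climbed with the PET count. Among LS513's pairs with both anchors in HCT116, a PET was found there for 1.63% of those with a single PET, 7.71% of those with 2, 52.9% of the 17 with 3 or 4, and 100% of the 14 with 5 or more. In the reverse direction these shares were 3.60%, 12.7%, 31.3% and 84.6%. SW620's pairs recurred less at the top. Of its pairs with 5 or more PETs, 10 had both anchors in LS513, and 4 of those had a PET there. In HCT116 it was 2 of 10. No test of these differences was made, since pairs are not replicates of a line.

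Large pairs confined to a single line were found mostly in SW620. Of pairs with 5 or more PETs, 12 of its 17 had no PET in any other line, against 2 of 13 for HCT116 and 1 of 15 for LS513. Of these 12, both anchors were listed in HCT116 for 5 and in LS513 for 5, and in SW480 for 0. The 2 largest with both anchors in HCT116 and LS513 were chr3:138577473-138583861 with chr20:35397018-35407070 (9 PETs) and chr9:140106387-140138647 with chr17:66283087-66319337 (7 PETs). These were chosen after their values were seen.

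In 3 lines, 7 pairs were multi-PET, and chromosome 19 or the recurring chromosome 2 anchor described below took part in all of them. The pair of chr1:213186063-213190501 and chr19:59047784-59059221 had 13 PETs in HCT116, and 6 and 2 in LS513 and SW620. The pair of chr17:37605399-37610016 and chr19:39878732-39883973 had 9, 7 and 4. The pair of chr11:57423361-57426798 and chr19:4469648-4475949 had 10, 3 and 3. All of these stood highest relative to depth in HCT116, and SW480 lacked an anchor for each. The chromosome 1 and 11 pairs were higher in HCT116 than in LS513 beyond counting error, by 4.71 times (1.67 to 15.1) and 7.25 times (1.87 to 41.0). Their anchors were 3.12 to 8.87 kb long in HCT116 and carried few PETs on their own chromosome, 5 to 18. The only pair of the 7 that included SW480 joined chr5:149010379-149016322 to chr19:18471706-18509405, with 2 PETs in each of HCT116, LS513 and SW480 and 0 in SW620, where both anchors were listed.

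A single anchor on chromosome 2 recurred far more than any other. It lay at chr2:203128241-203132733 in HCT116 and LS513 and at chr2:203128952-203132733 in SW620, and SW480 had no anchor there. SW620 gave it 21 multi-PET partners, LS513 14 and HCT116 11. The next anchor had 3, 4 and 2 partners in these lines. In the merged list, 1473 of 1656 regions (88.9%) had 1 partner, 146 had 2, 24 had 3 and 13 had 4 or more. The chromosome 2 anchor had 35 partners on 15 chromosomes, and the next regions had 5.

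Its contacts were spread over many partners. In HCT116 it had 113 interchromosomal PETs in 96 pairs, in LS513 132 PETs in 112 pairs and in SW620 167 PETs in 122 pairs. By number of interchromosomal pairs it ranked 1, 2 and 1 among all anchors of these lines. Multi-PET pairs were 11.5%, 12.5% and 17.2% of its pairs, against 0.652%, 0.641% and 0.655% of all pairs. Interchromosomal PETs were 54.1%, 55.9% and 57.2% of all its PETs, and it had only 6, 20 and 14 PETs with the rest of chromosome 2. No other anchor of SW620 with at least 100 PETs exceeded 30.0%, and the median there was 6.69%. Among such anchors of HCT116 and LS513, some of the leading pairs stood higher, at up to 89.8% and 99.0%. The chromosome 2 anchor ranked 3 and 5 there by this share. At 4.49 kb, or 3.78 kb in SW620, it was a short anchor.

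By PETs summed over the lines, 2 partners led. The former was chr17:73884955-73898232, with 7 PETs in SW620, 5 in LS513 and 4 in HCT116. The latter was chrX:3731635-3736411, with 9, 2 and 5 in the same order. LS513 had other partners with 3 PETs, above its 2 at the X site. Another partner that was multi-PET in all 3 lines lay at chr16:283320-286681, with 2 PETs in each. The chromosome 17 partner was a strongly active anchor, with 455, 815 and 579 PETs with itself in HCT116, LS513 and SW620. The X partner had 28, 74 and 68.

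Most of its multi-PET partners belonged to a single line. Of the 35, 3 were multi-PET in 3 lines, 5 in 2 lines and 27 in 1. With any PET counted, 11 of the 35 were seen in all 3 lines and 12 in a single line. Over all pairs of the anchor, multi-PET or not, 13 partners were seen in 3 lines, 28 in 2 and 235 in 1. A partner with 5 PETs in SW620, at chr3:179063492-179067089, had 0 in HCT116 and LS513, where it was listed as an anchor.

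**Figure D3:**
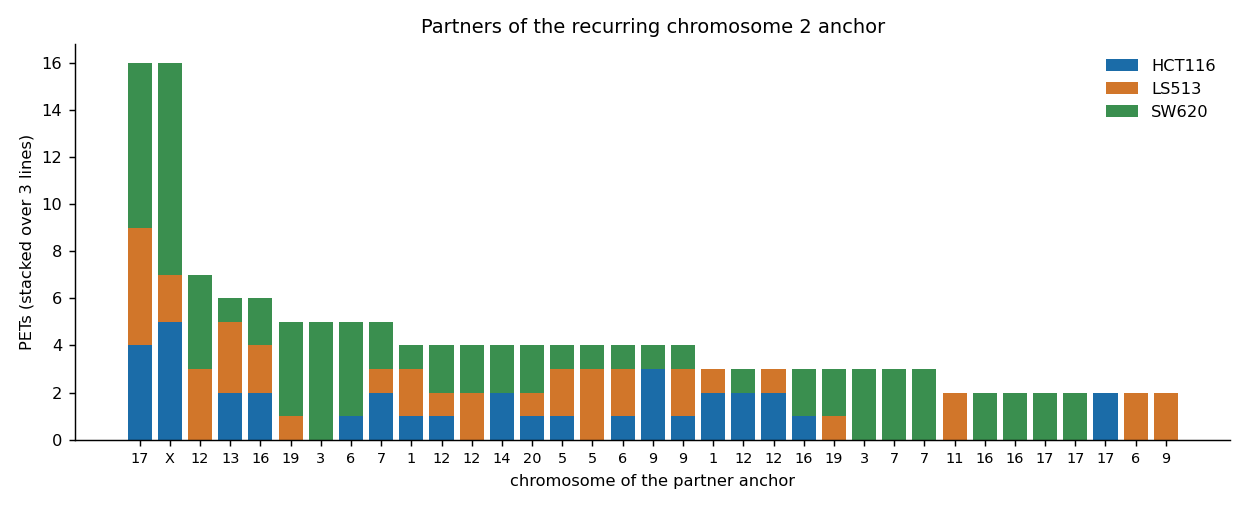
PETs between the recurring chromosome 2 anchor and each of its 35 multi-PET partners, stacked over HCT116, LS513 and SW620; each bar is a partner, labelled by its chromosome. Partners on chromosomes 17 and X reach 16 summed PETs each, and the rest have 7 or fewer.

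Other recurring anchors had few partners. Where several tied, they were ordered by their multi-PET PETs and only the first are named here. In HCT116 they were chr20:48778869-48783873 and chr5:43005690-43012562 with 2 each, from 14 anchors with 2. In LS513 they were chr11:72484913-72502857 with 4 and chr7:73234937-73258355 with 3, the latter from 7 anchors with 3. In SW620 they were chr11:65236903-65270534 with 3 and chr11:118776854-118805348 with 2, the latter from 34 anchors with 2. SW480 had 1 anchor with 2 partners, chr12:54067281-54074007. The LS513 and SW620 anchors named here were 17.9 to 33.6 kb long with 477 to 1164 PETs with themselves. Interchromosomal PETs were 5.29 to 8.76% of their PETs, near the median of their lines. The chromosome 20 anchor of HCT116 was 5.005 kb long with 72 PETs with itself, and its share was 5.36%. The chromosome 5 anchor of HCT116 stood higher at 29.5%, from 13 interchromosomal PETs. The features of the other tied anchors are not given here.

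A closed set of 3 regions occurred in SW620. Chr10:103120492-103131161 and chr11:62605486-62612138 shared 9 PETs, the chromosome 10 region shared 3 PETs with chr17:41435677-41449904, and the chromosome 11 and 17 regions shared 1. The chromosome 11 and 17 regions also shared 2 PETs in LS513. In HCT116 and LS513 the chromosome 10 region had no anchor. This set was singled out after its values were seen.

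Across chromosome pairs, multi-PET pairs were spread widely. In HCT116 the chromosome pairs with most were 2 and 17 (7), and 11 and 12 and 3 and 11 (5 each). In LS513 they were 11 and 17 (11), 1 and 17 (9) and 17 and 19 (8). In SW480 they were 3 and 20 (3) and 1 and 12 (2), and in SW620 17 and 19 (10), and 11 and 17 and 1 and 17 (9 each). These were set against the share of single-PET pairs in the same chromosome pair. In HCT116, 3 and 11 stood at 5.05 times (1.64 to 11.8), 11 and 12 at 3.65 times (1.18 to 8.51) and 2 and 17 at 3.12 times (1.25 to 6.43). Chromosomes 11 and 17 in LS513 stood at 2.83 times (1.41 to 5.07) and 17 and 19 in SW620 at 2.48 times (1.19 to 4.56). Intervals held 1 for 1 and 17 in LS513 and SW620, 17 and 19 in LS513, and 11 and 17 in SW620. The same was true of 1 and 12 in SW480, at 7.78 times (0.943 to 28.1). Chromosomes 3 and 20 in SW480 stood at 18.3 times (3.78 to 53.6) from 3 pairs. All were picked for their counts from 253 chromosome pairs.

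With all PETs counted, few chromosome pairs exceeded 1.5 times the expectation from chromosome totals: 8 of 253 in SW480 (3.16%), 3 in HCT116 (1.19%), 2 in SW620 (0.791%) and 1 in LS513 (0.395%). From single-PET pairs alone they were 11 (4.35%), 1 (0.395%), 2 (0.791%) and 1 (0.395%). In HCT116 those with all PETs were 18 and 21 at 1.95 (1.14 to 3.12), 1 and 3 at 1.51 (1.37 to 1.65), and 16 and 21 at 1.501 (1.11 to 1.98). The pair of chromosomes 1 and 3 owed its place to the dominant pair: from single-PET pairs alone it stood at 1.06 (0.942 to 1.19). In LS513 chromosomes 1 and 3 moved likewise from 1.28 to 1.01.

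Other chromosome pairs rested on single PETs. Chromosomes 2 and 3 in LS513 stood at 1.54 (1.41 to 1.68) with all PETs and at 1.61 (1.47 to 1.76) from single-PET pairs, and held 1 multi-PET pair. The other lines had 1.04, 0.832 and 1.04 with all PETs. Chromosomes 8 and 13 in SW620 stood at 1.79 (1.48 to 2.14), with 1 multi-PET pair, and HCT116 had 1.43 (1.11 to 1.82) there. Chromosomes 5 and 20 stood at 2.01 (1.49 to 2.67) in SW480 and at 1.35 in SW620 (lower bound 1.20), but at 0.988 in HCT116 and 0.938 in LS513, where the intervals held 1. Chromosomes 10 and 16 stood at 2.03 (1.18 to 3.25) in SW480 from 17 PETs and at 1.25 (1.14 to 1.38) in SW620. Chromosomes 18 and 21 were among the 3 furthest above expectation in LS513 and SW620 too, at 1.45 (0.982 to 2.05) and 1.52 (0.917 to 2.38), with no multi-PET pair in either. Next in SW620 were 18 and 22 at 1.44 (1.03 to 1.96), and in SW480 3 and 18 at 1.73 (0.948 to 2.91). Chromosomes 1 and 15 in LS513, under the fold, stood at 1.43 (1.32 to 1.54), and HCT116 had 1.17 (1.01 to 1.33) there.

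**Figure D4:**
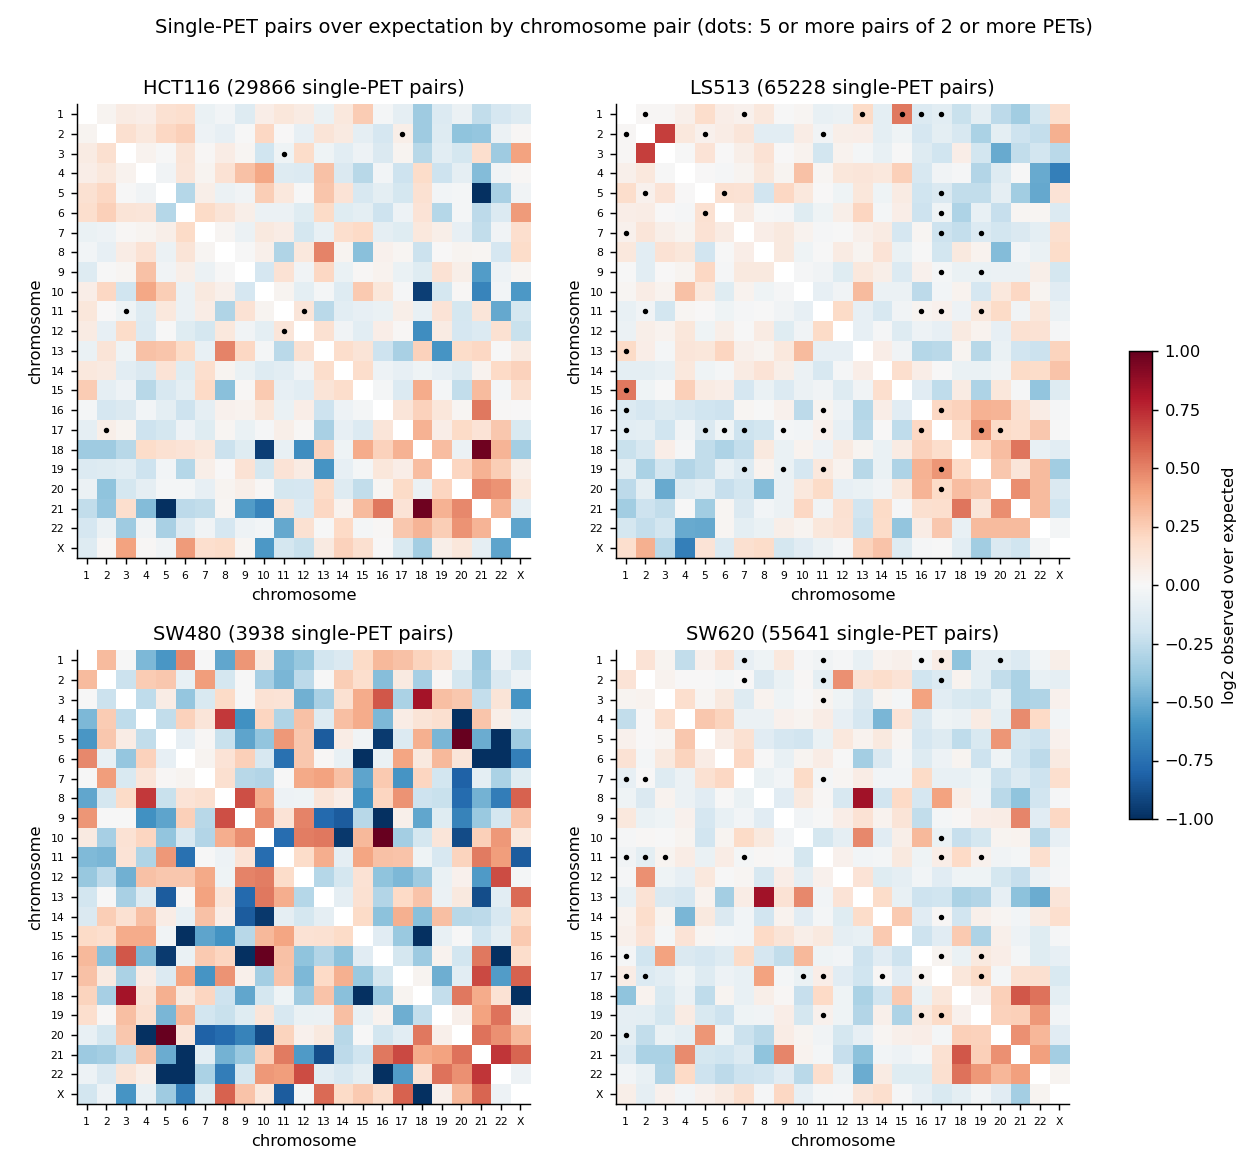
Single-PET interchromosomal pairs over the expectation from chromosome totals (log2 colour scale, capped at 1 either way) for the 253 chromosome pairs of each line, drawn symmetrically. Black dots mark chromosome pairs with 5 or more multi-PET pairs. Chromosomes 2 and 3 and 1 and 15 stand out in LS513 and 8 and 13 in SW620, and the SW480 map is scattered at 3938 pairs.

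Multi-PET pairs rarely marked a patch of neighbouring contacts. A patch was sought as a frame of 3 by 3 block pairs of 1 Mb with at least 10 PETs, 5 times the expectation from block totals and 2 multi-PET pairs. No frame met this in any line (0% in each). Without the demand for 2 multi-PET pairs, 35 frames passed in SW620 (0.0676%), 22 in LS513 (0.0372%), 13 in HCT116 (0.0455%) and 0 in SW480 (0%). All 13 of HCT116 held a single multi-PET pair, as did 12 in LS513 and 26 in SW620, and the rest held none. Overlapping frames around the same pair were counted separately here. The PETs of a multi-PET pair itself were counted too, so a single pair with 10 or more PETs can reach the limit without neighbours. HCT116 had 6 such pairs, and LS513 and SW620 5 each.

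Single-PET pairs near a multi-PET pair give a view that the choice of pairs did not use. Within 1 Mb on both sides of pairs with exactly 2 PETs, LS513 had 443 single-PET pairs against 346 expected from anchor totals, or 1.28 times (1.16 to 1.40). SW620 had 245 against 203, or 1.21 times (1.06 to 1.37). HCT116 had 47 against 47.5, or 0.990 times (0.727 to 1.32), and SW480 had a single neighbour. Pairs with 5 or more PETs had 3, 11 and 14 neighbours in HCT116, LS513 and SW620, with ratios of 1.07, 1.90 and 1.38 whose intervals held 1. Pairs with 3 or 4 PETs stood at 1.75 times (1.09 to 2.64) in SW620, from 22 neighbours against 12.6. They stood at 0.348 in HCT116 and 0.965 in LS513, where the intervals held 1. Within 5 Mb the pairs of LS513 stood at 1.15 times (1.11 to 1.19) with 2 PETs and at 1.35 times (1.08 to 1.67) with 5 or more. Those of SW620 stood at 1.13 times (1.08 to 1.17) with 2 PETs and at 1.24 times (1.07 to 1.42) with 3 or 4. The other classes at 5 Mb had intervals that held 1, including SW620 with 5 or more at 1.05 (0.866 to 1.26). Most multi-PET pairs had no neighbour at 1 Mb. Of pairs with 2 PETs, 38 of 167 had any in HCT116, and the counts were 166 of 389 for LS513 and 119 of 323 for SW620. The same values around single-PET pairs are not given here, so none of this can be called particular to multi-PET pairs. Neighbours were also bunched, with up to 22 around 1 pair of LS513, while the intervals treat them as independent.

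Patches of neighbouring pairs did appear at a coarser scale. Counting each pair once in block pairs of 5 Mb, and asking for at least 10 pairs and 5 times expectation, gave 1 cluster in HCT116 (0.00483% of block pairs with any contact), 2 in LS513 (0.00563%), 3 in SW620 (0.00912%) and 0 in SW480 (0%). The block size and limits were set after the data had been scanned at several sizes, and the places were picked as the highest, so their folds are a description. Of the 6 clusters, 4 held no multi-PET pair and 2, both in SW620, held 1 each. The clusters had 10 to 29 pairs each, and multi-PET pairs were 0.641 to 0.655% of all pairs in these lines. Most clusters of that size would hold none at that share, so these counts do not show a lack of multi-PET pairs. The calls depended on the block size. At 10 Mb the HCT116 cluster, the LS513 cluster at 155 to 160 Mb of chromosome 1, and the SW620 clusters of chromosomes 7 and 16 and of 3 and 16 were no longer called.

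The 5 Mb cluster with most pairs joined chromosome 7 at 45 to 50 Mb to chromosome 16 at 80 to 85 Mb in SW620. It held 29 pairs against 2.05 expected, or 14.1 times (9.47 to 20.3), from 14 different anchors on chromosome 7 and 20 on chromosome 16. Its multi-PET pair joined chr7:47793438-47834255 to chr16:82723257-82751429 with 2 PETs. The same block pair held 4 pairs in LS513, or 9.36 times (2.55 to 24.0), and 1 each in HCT116 and SW480, whose intervals held 1. Beyond the cluster, pairs within 3 Mb of the cluster's median on chromosome 7 and 5 to 20 Mb from it on chromosome 16 numbered 42 against 18.7 expected, or 2.24 times (1.62 to 3.03). Those near on chromosome 16 and far on chromosome 7 numbered 5 against 3.92, or 1.28 times (0.415 to 2.98), an interval that also holds the former ratio. Those far on both numbered 21 against 25.0. In SW480, 4 pairs lay between 10 and 20 Mb from the medians against 0.732 expected, or 5.47 times (1.49 to 14.0). Between 5 and 10 Mb SW480 had 0 against 0.247.

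SW620 had another cluster on chromosome 16. Chromosome 10 at 95 to 100 Mb met chromosome 16 at 55 to 60 Mb in 17 pairs against 1.54 expected, or 11.0 times (6.41 to 17.6). Its multi-PET pair joined chr10:95190290-95243187 to chr16:57827688-57851995 with 2 PETs. Pairs 5 to 20 Mb away on either or both sides stayed above expectation, at 2.59, 3.52 and 1.76 times, with every interval above 1. HCT116, LS513 and SW480 had 2, 1 and 0 pairs in the block pair, but SW480 had only 0.0574 expected there. Between 5 and 10 Mb from the medians, SW480 had 5 pairs against 0.579 expected, or 8.64 times (2.80 to 20.2). Between 10 and 20 Mb it had 1 against 0.907. In the 5 to 10 Mb ring HCT116 stood at 0.842 and LS513 at 0.311 times, with intervals that held 1. Chromosome 3 at 45 to 50 Mb met chromosome 16 at 30 to 35 Mb in 10 pairs, or 5.77 times (2.77 to 10.6), with no multi-PET pair.

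In LS513 both clusters joined the same part of chromosome 15 to chromosome 1. Chromosome 1 at 155 to 160 Mb met chromosome 15 at 90 to 95 Mb in 21 pairs, or 5.10 times (3.15 to 7.79), and at 145 to 150 Mb in 11 pairs, or 7.78 times (3.88 to 13.9). Each pair there had a single PET. Pairs between 10 and 20 Mb from the medians still stood at 3.23 times (2.56 to 4.02) and 3.36 times (2.68 to 4.16), the highest in that ring among the 6 clusters. The rings of the LS513 clusters overlap. HCT116 had 4 and 2 pairs in these block pairs, with intervals that held 1, and SW620 had 1 and 0. Between 10 and 20 Mb, HCT116 stood at 1.75 times (0.959 to 2.94) and 1.87 times (1.05 to 3.09), and SW620 at 1.02 and 0.980 times. In HCT116, chromosome 10 at 100 to 105 Mb met chromosome 16 at 80 to 85 Mb in 11 pairs, or 10.6 times (5.28 to 18.9), all with a single PET. LS513 had 0 pairs there against 0.919 expected, and SW620 had 3 against 1.81.

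**Figure D5:**
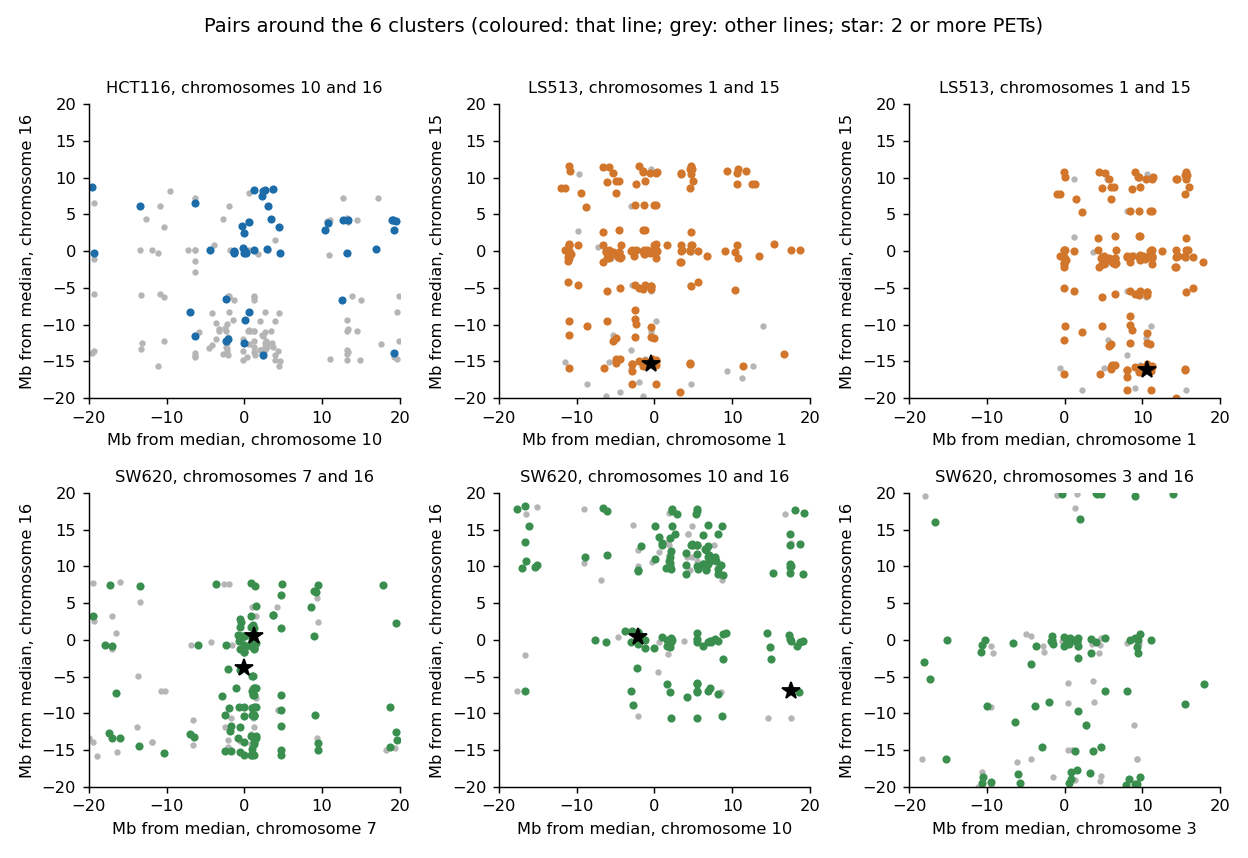
Interchromosomal pairs within 20 Mb of the median position of each of the 6 clusters, as distances in Mb on either chromosome. Coloured points are single-PET pairs of the line the cluster was found in, stars are its multi-PET pairs and small grey points are pairs of the other 3 lines. Both LS513 panels cover overlapping parts of chromosomes 1 and 15, and in the SW620 panel for chromosomes 7 and 16 points extend along chromosome 16.

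At 5 or more PETs the longer anchor of a pair was shorter in HCT116 and LS513, but little changed in SW620. HCT116 and LS513 used almost the same anchors and shared their leading pairs, so they are not separate instances. In HCT116 the longer anchor of a pair had a median length of 9.18 kb at 1 PET, 9.40 kb at 2 PETs and 5.03 kb at 5 or more. In LS513 these were 9.33, 12.2 and 4.75 kb. In SW620 they were 13.9, 14.4 and 13.3 kb. Pairs with 3 or 4 PETs had medians of 8.31 kb in HCT116, 6.50 kb in LS513 and 6.79 kb in SW620. The less active anchor of a pair had a median of 25 PETs with itself at 1 PET and 10 at 5 or more in HCT116, against 37 and 15 for LS513 and 20 and 15 for SW620. In HCT116 and LS513 none of the pairs with 5 or more PETs had an anchor of 20 kb or more, against 17.6% and 18.1% of single-PET pairs, while in SW620 41.2% of 17 did, against 34.0%. Of SW620's 27 pairs with 3 or 4 PETs, 22.2% did.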

How the data were processed

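H3K27ac HiChIP of 4 lines, 1 library each, was used. The unit throughout was the deposited count of PETs per pair of anchors, a whole number. HiC-Pro and hg19 (GRCh37) are named per the submitters' processing notes. How anchors were chosen, and how duplicates and reads matching several places were handled, is not given in the sources used here. Deposited counts of pairs on different chromosomes gave the pairs, and the deposited unfiltered counts of pairs on the same chromosome gave each anchor's PETs with itself and with its own chromosome. Chromosomes 1 to 22 and X were used, which left out 39 pairs. Both anchors had to overlap by at least 1 bp to match a pair between lines.

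Expectations came from an iterative fit of chromosome, block or anchor totals without pairs within a chromosome. The search for 5 Mb clusters was also run on shuffled single-PET pairs of HCT116 and SW620 with clusters added. No wider enrichment of chromosome pairs was put into those data. That run therefore cannot show whether the called clusters stand apart from such enrichment. Intervals are 95% Clopper-Pearson, Poisson or conditional, and treat PETs as independent. There was no test, since each line had 1 library. Depth ranged from 3988 to 66606 interchromosomal PETs. Named were, per line, the 5 pairs with most PETs, the 3 anchors with most partners, the 3 chromosome pairs with most multi-PET pairs and the 3 furthest above expectation, and the 5 pairs found in most lines. Pairs and regions outside that rule were chosen after their values were seen. The pairs and lists were chosen with earlier results of these data known. No annotation of hg19 was used, so no gene was assigned and no sequence is shown. Software was scipy 1.17.1, pandas 2.3.3, numpy 2.4.6 and matplotlib 3.10.9 under Python 3.11.15.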

Additional observations from a re-analysis of the deposited data

How the results depend on the processing

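With a minimum of 3 PETs, multi-PET pairs numbered 44 in SW620, 32 in LS513, 29 in HCT116 and 3 in SW480. At SW480's depth 10.2, 6.16 and 4.69 were expected in HCT116, LS513 and SW620, against 23 in SW480. Its smaller number of anchors, 9350 against 21930 to 24555, is not allowed for in that figure. Without anchors of 20 kb or more SW620 kept 239. Leaving out anchors near the longest anchor-free stretch of a chromosome, or the 10 anchors with most partners, moved no line's count by over 1.5 times. Entries found in another line numbered 85 under both other overlap rules and 159 where 1 PET sufficed there. Chromosome pairs past the fold in HCT116, LS513, SW480 and SW620 numbered 14, 29, 34 and 11 with the expectation from anchor length, and 0, 0, 2 and 0 at a fold of 2. From single-PET pairs HCT116 had 1. Joined frames stayed at 0, except 1 in LS513 and 1 in SW620 with blocks of 2 Mb, and 1 in each with at least 5 PETs. With 2 Mb blocks the SW620 frame lay at chromosomes 7 and 16, at 44 to 50 and 78 to 84 Mb, with 33 PETs and 2 multi-PET pairs. Clusters of 5 Mb, whose alternatives were all chosen after seeing the data, moved as follows. In HCT116 they numbered 0 at 10 Mb, 0 at 2 Mb, 13 with at least 5 pairs and 2 at 3 times expectation. LS513 had 0 at 2 Mb, 37 and 13, and SW620 37 and 10. At 10 Mb, LS513 had 2 and SW620 4, but of the 5 Mb clusters only chromosomes 1 (near 145 Mb) and 15, and 10 and 16, were still called. The others at 10 Mb were chromosomes 2 and 3 in LS513, and 8 and 17, 5 and 20, and 17 and 21 in SW620. The cause of these shifts was not tested, beyond what each setting's construction gives. No paired analysis was possible because each line had 1 library and no result comes from a test. Leaving out a replicate was not possible either. SW480's depth limits it most: a count of 0 there allows up to 752 per 1000000 PETs.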
